A study of Mus musculus with 8 samples.

Results

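The experiment described here asked what TCDD did to gene expression in CD4 T cells of mice that lack the Ah receptor gene. The comparison took the 2 arrays of knockout mice given TCDD against the 2 arrays of knockout mice given the solvent, which are 4 of the 8 arrays of the study, and every probe set of the deposited table except the 64 Affymetrix controls, 22626 of 22690. The 4 arrays were chosen by their titles, and no measured value entered the choice. Each probe set reads 1 stretch of a transcript with several short oligonucleotides, and the values are log2 expression levels, so a difference of 1 is a 2-fold change.

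The knockout mice (KO) carried a null allele of Ahr on a strain crossed back to C57BL/6, and the wild-type mice (WT) were C57BL/6. KO DMSO mice received the DMSO solvent, and KO TCDD mice received 10 µg/kg TCDD (2,3,7,8-tetrachlorodibenzo-p-dioxin), in both cases by intraperitoneal injection in corn oil 24 h before they were killed. WT DMSO and WT TCDD mice were treated alike. All were females aged 8 to 12 weeks, the CD4 T cells were sorted from the spleen by flow cytometry, and each array held RNA pooled from 4 mice, so differences between single mice cannot be seen. Each of the 4 groups had 2 arrays, which the labels call biological duplicates. The label of the second KO TCDD array gives the dose in its source entry alone, and the first WT TCDD array has a description that names the knockout against its title, source and strain entries and was taken as WT.

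The aryl hydrocarbon receptor (AhR) is a transcription factor held in the cytosol in a complex with HSP90. TCDD is its prototypical high-affinity ligand. On binding, the receptor enters the nucleus, pairs with ARNT and binds the dioxin response element, whose core is GCGTG, near genes such as Cyp1a1, Cyp1b1, Ahrr and Tiparp. Most known effects of TCDD in mice need the receptor, so mice without it serve as the control for effects of the compound that do not pass through AhR.

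The promoters of a few known target genes of the receptor are printed first. Whether the receptor acts through a core marked in them was not tested. Each is the 250 bases before the gene's start in RefSeq (GRCm38.p6), 5′ to 3′ on the gene's strand, and capitals mark the core GCGTG or its reverse complement CACGC.
Cyp1a1, chr9:57697363-57697612, plus strand: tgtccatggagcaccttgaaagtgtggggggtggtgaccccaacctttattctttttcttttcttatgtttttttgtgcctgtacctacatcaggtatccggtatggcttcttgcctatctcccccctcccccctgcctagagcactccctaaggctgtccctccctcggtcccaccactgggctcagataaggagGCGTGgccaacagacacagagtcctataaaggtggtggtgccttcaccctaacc
Cyp1b1, chr17:79715062-79715311, minus strand: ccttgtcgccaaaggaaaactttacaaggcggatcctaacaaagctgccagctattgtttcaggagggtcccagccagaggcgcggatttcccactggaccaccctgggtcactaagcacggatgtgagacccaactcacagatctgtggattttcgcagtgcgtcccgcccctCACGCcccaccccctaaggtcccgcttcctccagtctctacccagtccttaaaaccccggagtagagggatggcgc
Ahrr, chr13:74292332-74292581, minus strand: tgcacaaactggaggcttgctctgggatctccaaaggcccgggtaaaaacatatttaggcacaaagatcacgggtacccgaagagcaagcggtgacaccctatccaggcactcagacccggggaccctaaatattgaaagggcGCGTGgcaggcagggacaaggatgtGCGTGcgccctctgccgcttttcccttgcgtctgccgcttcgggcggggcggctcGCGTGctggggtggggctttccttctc
Tiparp, chr3:65528197-65528446, plus strand: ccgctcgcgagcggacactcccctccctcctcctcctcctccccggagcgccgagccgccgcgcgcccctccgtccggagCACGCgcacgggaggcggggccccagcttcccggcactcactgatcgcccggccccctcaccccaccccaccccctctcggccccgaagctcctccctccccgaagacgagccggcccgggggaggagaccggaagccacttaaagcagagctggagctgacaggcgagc
Cyp1a1 had 1 core whose first base lay 54 bases before the start, Cyp1b1 had 1 at 76 bases, Ahrr had 3 at 107, 82 and 27 bases, and Tiparp had 1 at 170 bases. The core is short and common: 10639 of 32851 mouse promoters in the RefSeq table (32.4%), each taken from 250 bases before to 50 after the start, held it on either strand. Overlapping matches of the motif and its reverse complement were each counted.

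Before any result, 1 of the 4 KO arrays has to be set apart. KO DMSO replicate 2 was the array farthest from the mean of the other KO arrays for 10944 probe sets (48.4%), against 23.2% for KO DMSO replicate 1, 15.2% for KO TCDD replicate 1 and 13.2% for KO TCDD replicate 2. The 2 KO DMSO arrays correlated at 0.974 over probe sets and were at least 2-fold apart in 574 of them. The 2 KO TCDD arrays correlated at 0.992 and were at least 2-fold apart in 87. Pairs of 1 DMSO and 1 TCDD array lay between these, with 137 to 391 probe sets at least 2-fold apart. On the first principal component of the KO arrays, which held 62.4% of their variance, KO DMSO replicate 2 lay at 38.2 and KO DMSO replicate 1 at −22.0, with both TCDD arrays between them at −11.1 and −5.11. The largest spread among the 4 arrays was therefore inside the solvent group and not between treatments.

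**Figure D1:**
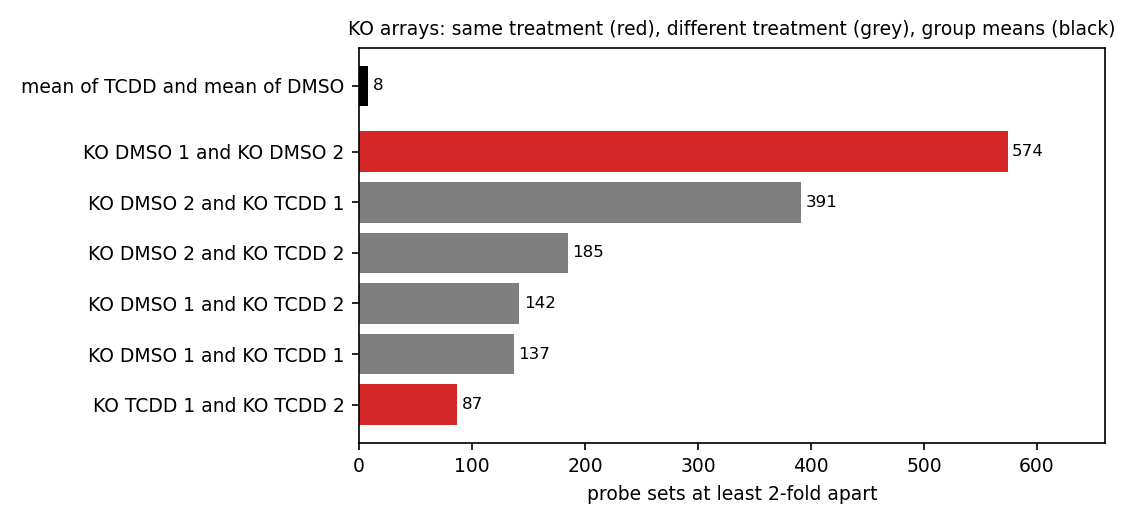
Number of probe sets at least 2-fold apart for each pair of KO arrays (red: same treatment; grey: different treatment) and for the group means (black), out of 22626. The 2 DMSO arrays differ in 574 probe sets, more than any pair of a DMSO and a TCDD array, and the means differ in 8.

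No probe set passed the test for a difference between TCDD and DMSO in the absence of the receptor (limma with Benjamini-Hochberg adjustment, 0 of 22626 at an adjusted p under 0.05, or 0% called). The smallest adjusted p was 0.9997. Without adjustment, 383 probe sets (1.69%) had a p under 0.05, fewer than the 5% nominal for a test with no difference. Of these, 343 (1.52%) were higher after TCDD and 40 (0.177%) were lower, and 1 had a p under 0.001. The split moved with the scaling of the arrays: 277 were higher and 115 lower after another quantile normalization, and 269 were higher and 60 lower after centring each array on its median. It also rested on single arrays: 184 were higher and 223 lower without KO DMSO replicate 2, 1525 were higher and 1689 lower without KO DMSO replicate 1, and 179 were higher and 10 lower without KO TCDD replicate 1, with 0 called each time.

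The intervals nevertheless excluded a 2-fold change for most probe sets, dim ones included. They assumed the same spread in every group. The median standard error of a difference was 0.16, and the 95% interval reached a median of 0.39 to each side. For 19875 probe sets (87.8%) the interval excluded a 2-fold change in either direction, and for 58.8% it excluded a 1.5-fold change. In a fit of only the probe sets at or above the median mean level, 8980 intervals excluded a 2-fold change. The differences themselves were small, with their 5th percentile at −0.295 and their 95th at 0.345. With 2 arrays against 2, an exact two-sided permutation test of a single value has 6 arrangements and cannot give a p below 0.333.

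Both TCDD arrays lay above both DMSO arrays in 4640 probe sets (20.5%) and below both in 1615 (7.14%). In 7680 probe sets (33.9%) both TCDD arrays lay between the 2 DMSO arrays, while the reverse held in 8.54%. The difference of means was smaller than the gap between the 2 DMSO arrays in 73.4% of probe sets. The median gap was 0.23 between the DMSO arrays and 0.10 between the TCDD arrays, against a median absolute difference of 0.11 between treatments. The excess of the 3′ over the 5′ control probe set, a measure of RNA integrity, was larger on both KO TCDD arrays than on both KO DMSO arrays. For actin it was 3.48 and 3.6 on the KO DMSO arrays and 3.73 and 3.82 on the KO TCDD arrays. For Gapdh it was 4.86 and 4.77 on the KO DMSO arrays and 5.20 and 4.95 on the KO TCDD arrays. In WT the actin groups overlapped, with 3.70 and 2.90 after DMSO and 4.56 and 3.30 after TCDD. The part of the KO difference in any value below was not tested.

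Only 8 probe sets (0.0354%) reached a 2-fold difference of means, and none of them passed the test. Klk1b5, a kallikrein-related peptidase gene, held 2 of the 4 lower ones, and both rested on KO DMSO replicate 2: the first read 4.56 and 7.25 on the DMSO arrays against 4.6 and 4.56 on the TCDD arrays, and the second 4.74 and 7.22 against 4.81 and 4.87. Without that array the Klk1b5 differences were 0.02 and 0.10 in place of −1.325 and −1.14. Trpm7, an ion channel fused to a kinase, read 8.50 and 7.74 after DMSO and 6.98 and 7.26 after TCDD, so the groups did not overlap, with a difference of −1.0 (limma, unadjusted p = 0.163, adjusted p = 0.9997). Its WT arrays, whose gaps enter these p-values, read 8.14 and 9.81 after DMSO and 7.30 and 8.60 after TCDD. The fourth lower probe set has no single symbol, and its difference of −1.03 became −0.08 without KO DMSO replicate 2.

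Among the 4 higher ones, Camkk2, a calcium/calmodulin-dependent kinase kinase, read 8.19 and 7.12 after DMSO and 8.84 and 8.47 after TCDD, a difference of 1.0 that became 0.47 without KO DMSO replicate 2. The inducible heat shock protein 70 genes Hspa1a and Hspa1b came next. Hspa1a read 6.79 and 5.24 against 6.85 and 7.32 (1.07), and Hspa1b read 8.52 and 6.85 against 8.52 and 9.0 (1.075). KO DMSO replicate 2 was the low array for both, and without it their differences were 0.29 and 0.24. The remaining probe set has no single symbol and differed by 1.605, with KO TCDD replicate 2 at 9.80 against 6.60 to 6.89 on the other 3 KO arrays. The 8 probe sets are named as those past 2-fold and were looked at one by one after their values were seen.

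The known transcriptional targets of AhR are the first place to look for a response. The list used here held 30 genes, of which 23 were measured by a probe set with 1 symbol. None of the 23 passed the test, 12 were higher and 11 lower after TCDD, and their median difference was 0.01, beside 0.03 over all 12393 measured genes; the sign of the list's median turned to −0.01 with centred arrays and to −0.04 without dim probe sets. All 23 intervals included 0, and 18 of the 23 excluded a 2-fold change either way. Both TCDD arrays lay above both DMSO arrays for 4 targets (17.4%) and below them for 3 (13.0%), beside 20.4% and 6.94% over all genes, and the groups overlapped for 16. Of the 23, 13 had a mean level under 6.13, the median of all probe sets.

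Cyp1a1, the cytochrome P450 most strongly induced by AhR ligands in many tissues, read 5.82 and 5.84 on the KO DMSO arrays and 5.93 and 5.89 on the KO TCDD arrays. Its TCDD values lay just above its DMSO values, and the difference of 0.08 (SE 0.10, 95% interval −0.15 to 0.31) did not pass the test. In WT mice the same probe set read 5.77 and 5.82 after DMSO and 5.91 and 5.94 after TCDD, a difference of 0.13 (SE 0.10) that did not pass either. Both pairs of values lay under the median level of all probe sets.

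Cyp1b1, a second AhR-induced cytochrome P450, had 3 probe sets with differences of 0.07, 0.07 and 0.08 in KO. The brightest read 5.89 and 5.98 after DMSO and 6.13 and 5.87 after TCDD, with overlapping groups and a 95% interval from −0.45 to 0.58. The others read 3.95 and 3.93 against 3.99 and 4.02, and 5.38 and 5.20 against 5.40 and 5.33. None of the 3 passed the test.

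Ahrr, the repressor that competes with AhR for ARNT and is itself induced by the receptor, carried 3 core motifs in the promoter above. It read 4.6 and 4.79 after DMSO and 4.49 and 4.67 after TCDD in KO, with overlapping groups and a difference of −0.12 (SE 0.17, 95% interval −0.52 to 0.29). In WT it read 4.49 and 4.49 after DMSO and 5.13 and 4.70 after TCDD, where the groups did not overlap and the difference was 0.42. The KO effect minus the WT effect was −0.54 (limma, unadjusted p = 0.0614, adjusted p = 0.998), so a difference between the genotypes was not called for Ahrr.

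Tiparp, a mono-ADP-ribosyltransferase that is induced by AhR and limits it, had 3 probe sets. The brightest read 9.13 and 8.53 after DMSO and 9.01 and 8.63 after TCDD in KO, a difference of −0.01 with a wide interval from −1.13 to 1.11. Its WT arrays, whose gaps enter this interval, read 9.43 and 8.57 after DMSO and 9.63 and 8.43 after TCDD. In KO the second read 6.44 and 6.35 against 6.34 and 6.41 (−0.02, 95% interval −0.39 to 0.35). The third read 6.30 and 6.17 against 6.56 and 6.29 (0.19, SE 0.13). The groups overlapped for all 3 probe sets, and in WT their differences were 0.03, 0.02 and −0.01.

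Nqo1, a quinone reductase controlled by both AhR and NRF2, read 4.85 and 4.74 after DMSO and 4.89 and 4.97 after TCDD. The TCDD arrays were the higher ones, and the difference was 0.14 (SE 0.12, 95% interval −0.15 to 0.42), with 0.15 in WT. Other xenobiotic-metabolising targets did not pass either, with Cyp1a2 at −0.04, Aldh3a1 at 0.09, Xdh at 0.01 and Inmt at 0.185. Targets with immune or stress roles included Ido1 at 0.03, Ptgs2 at −0.09, Itgae at 0.09, Ereg at 0.08, Scin at 0.03, Slc7a5 at −0.04, Sqstm1 at −0.25 and Epas1 at −0.04. Polk at 0.11 and Tiam2 at −0.01 completed the genes with narrow intervals.

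The widest differences among the targets belonged to genes whose replicate arrays disagreed, and their standard errors took in the WT arrays too. Fmo2, a flavin-containing monooxygenase, read 7.91 and 9.33 after DMSO and 7.79 and 7.72 after TCDD, so that both TCDD arrays lay below both DMSO arrays with a difference of −0.865 (SE 0.43, 95% interval −1.90 to 0.17). KO DMSO replicate 2 was the high one, and without it the difference was −0.15, while without KO DMSO replicate 1 it was −1.57. The 2 other probe sets of Fmo2 differed by 0.04 and 0.01. Nfe2l2, which encodes NRF2, read 7.10 and 6.15 against 5.99 and 5.86, a difference of −0.70 (SE 0.91) that became −1.18 when KO DMSO replicate 2 was left out and −0.23 when KO DMSO replicate 1 was. Pmaip1, which encodes the apoptosis mediator NOXA, read 8.16 and 8.72 against 7.30 and 8.61 (−0.48, SE 0.75). Tgm2, a transglutaminase, read 7.24 and 8.34 against 7.39 and 8.69, with both arrays numbered 2 high and a difference of 0.25 (SE 0.53). In WT, Nfe2l2 read 6.37 and 7.78 after DMSO and 5.95 and 8.75 after TCDD. Pmaip1 read 7.57 and 5.44 against 6.80 and 6.03 there. These WT gaps also enter the standard errors of the KO differences.

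**Figure D2:**
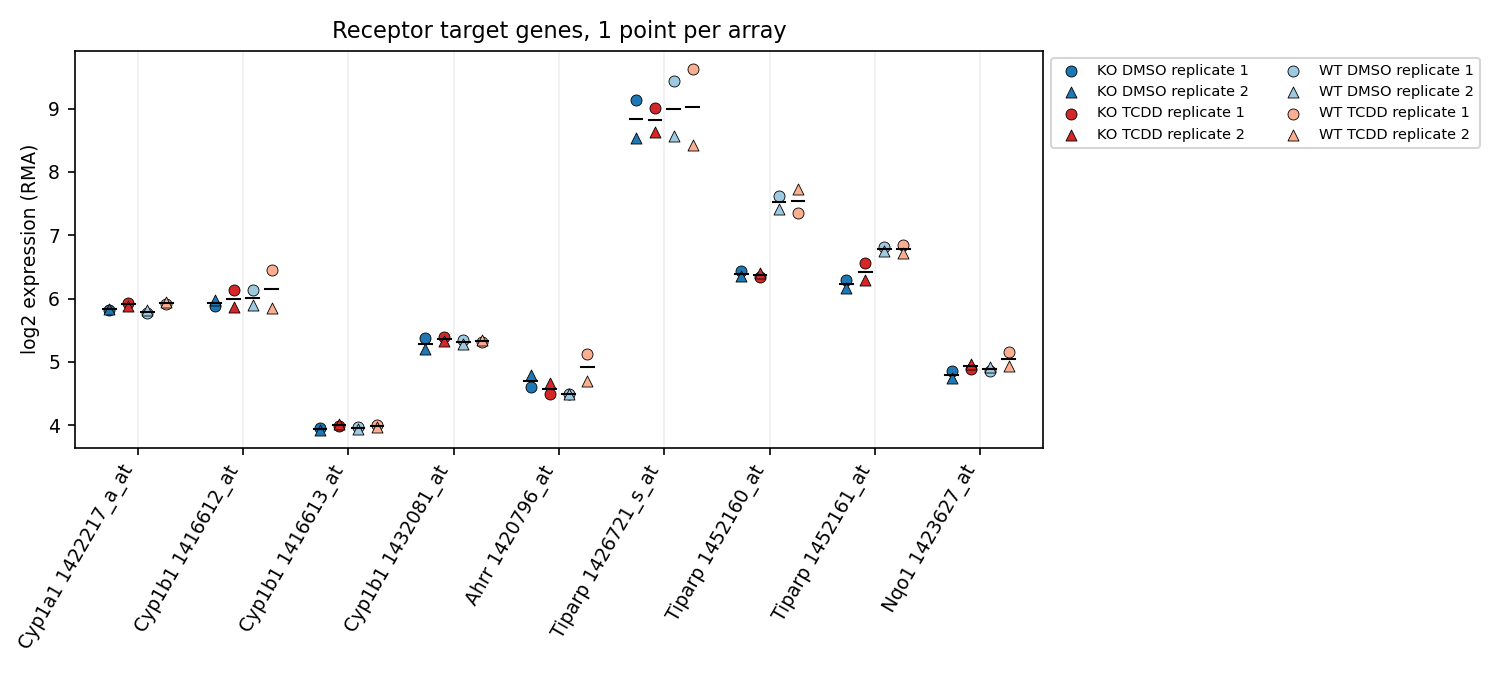
Log2 expression of Cyp1a1, Cyp1b1, Ahrr, Tiparp and Nqo1 probe sets, 1 point per array, with short bars at the mean of the 2 arrays of a group. The KO TCDD points of Cyp1a1 (5.93 and 5.89) sit just above the KO DMSO points (5.82 and 5.84), and the groups of Ahrr and Tiparp overlap in KO.

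No gene of the receptor's own machinery passed the test either. Ahr itself was read by 2 probe sets, 1 at 7.08 and 6.60 after DMSO and 6.49 and 6.79 after TCDD (−0.20, SE 0.19), the other at 6.41 and 6.86 against 6.46 and 6.35 (−0.23, SE 0.18). The position of these probes relative to the disrupted exons was not analysed here, so their levels do not check the genotype. Arnt, the dimer partner, read 5.23 and 5.11 against 5.23 and 5.20 (0.05, SE 0.12), and a second probe set differed by −0.01. Hsp90aa1, an inducible form of HSP90, read 10.55 and 10.10 against 10.17 and 10.40 (−0.04, SE 0.25). Of the 18 measured genes of the complex and its partners, 10 were higher and 8 lower, none passed the test, and the differences ran from −0.23 (Ahr) to 0.28 (Rela, an NF-kappaB subunit).

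The median difference in KO did not rise with the number of core motifs in a promoter. Of 12393 measured genes, 9882 had a promoter in the RefSeq table and 4964 of these (50.2%) held the core in at least 1 promoter. The median difference in KO was 0.03 for 4918 genes with no core, 0.03 for 2977 genes with 1, 0.04 for 1269 genes with 2 and 0.03 for 718 genes with 3 or more. In WT the medians for the same classes were 0.04, 0.02, −0.01 and −0.02. Of the 14 AhR targets with a promoter in the table, 6 held the core: Ahrr (KO difference −0.12), Cyp1a1 (0.08), Cyp1b1 (0.07), Ptgs2 (−0.09), Scin (0.03) and Tiparp (−0.01). A match is a description of these letters in this window and not a binding site.

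No gene can be said to have risen or fallen, so the genes that came first by a rule of size and separation are given as values that did not pass. The rule took the 10 largest differences in each direction, 1 probe set per gene, among probe sets with a mean over the KO arrays above the median of all probe sets whose TCDD arrays both lay beyond both DMSO arrays and whose unadjusted p was under 0.05. It left 224 genes higher and 25 lower to choose from. Every adjusted p was 0.9997.

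Tspo, the translocator protein of the outer mitochondrial membrane, read 9.44 and 8.47 after DMSO and 10.00 and 9.62 after TCDD, a difference of 0.855 (SE 0.35) that became 0.37 when KO DMSO replicate 2 was left out and 1.34 when KO DMSO replicate 1 was. Its 2 other probe sets differed by 0.84 and 0.81. Uqcc2, an assembly factor of respiratory complex III, read 7.39 and 7.23 against 8.23 and 7.96 (0.79, SE 0.15), and 1 other probe set differed by 0.12. Coa3, an assembly factor of cytochrome c oxidase, read 9.29 and 8.73 against 10.21 and 9.49 (0.84, SE 0.29; 0.48 without KO TCDD replicate 1), while its other probe set differed by −0.14. Timm13, a chaperone for import into the inner membrane, read 8.70 and 8.28 against 9.52 and 9.03 (0.79, SE 0.26).

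Zfp574, a zinc finger protein gene, had the largest difference of the 10, with 7.01 and 6.71 after DMSO and 7.79 and 7.72 after TCDD (0.90, SE 0.24). Its 2 other probe sets differed by 0.03 and −0.11, so the gene's probe sets disagreed. Bicd2, an adaptor that links cargo to dynein, read 6.73 and 6.86 against 7.57 and 7.73 (0.855, SE 0.15), and its 4 other probe sets differed by −0.06 to 0.26. Yipf2, a Golgi membrane protein gene, differed by 0.80, Fkbp2, a prolyl isomerase of the endoplasmic reticulum, by 0.795, and 2310061I04Rik by 0.79. C1qb, a chain of complement C1q made by macrophages, read 6.85 and 7.91 against 8.30 and 8.10 (0.82, SE 0.34). Leaving out KO DMSO replicate 1 gave 0.29 for C1qb, and leaving out KO DMSO replicate 2 gave 1.35. Its other probe sets differed by −0.215 and 0.12. Without KO DMSO replicate 2 the difference was 0.465 for Yipf2, 0.44 for Fkbp2 and 0.475 for 2310061I04Rik. The other probe set differed by 0.045 for Yipf2 and by 0.04 for 2310061I04Rik.

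The 10 lower genes had smaller differences. Cd28, the T cell costimulatory receptor, read 9.04 and 8.23 after DMSO and 7.83 and 7.88 after TCDD (−0.78, SE 0.31), with the TCDD arrays below both DMSO arrays. Leaving out KO DMSO replicate 1 gave −0.375 for Cd28, and leaving out KO DMSO replicate 2 gave −1.185. Its brighter probe set, however, read 10.02 and 9.26 against 9.82 and 9.28, a difference of −0.09 with overlapping groups. Stk17b, a kinase that restrains T cell receptor signalling, read 11.26 and 10.84 against 10.29 and 10.31 (−0.75, SE 0.19), and its second probe set differed by −0.66. Saraf, an inhibitor of store-operated calcium entry, read 11.41 and 11.16 against 10.73 and 10.84 (−0.50, SE 0.20).

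The other lower genes were Cops4, a COP9 signalosome subunit, at −0.65, Ltv1, a factor in assembly of the small ribosomal subunit, at −0.495, and Scp2, a sterol carrier protein, at −0.485. They were followed by Lrrc8c, a subunit of volume-regulated anion channels, at −0.44, Snd1 at −0.425, Tbc1d15, a GTPase-activating protein, at −0.405 and Hspe1, the mitochondrial chaperonin 10, at −0.385. Leaving out 1 KO DMSO array shrank 3 of these log2 differences by a factor over 1.5. Ltv1 went to −0.285 without replicate 1, and Scp2 to −0.245 and Tbc1d15 to −0.265 without replicate 2. For Scp2, Snd1 and Tbc1d15 the other probe sets lay between −0.12 and 0.21. The other probe set of Hspe1 was brighter and differed by 0.025. Over the named genes, 10 of 14 other probe sets of the higher genes and 6 of 10 of the lower genes pointed the same way as the named one. Beside this, 12860 of all 22626 probe sets were higher after TCDD in KO and 9467 lower. Of the same-direction ones, 2 of the higher genes, both of Tspo, and 0 of the lower genes had an unadjusted p under 0.05 (limma).

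**Figure D3:**
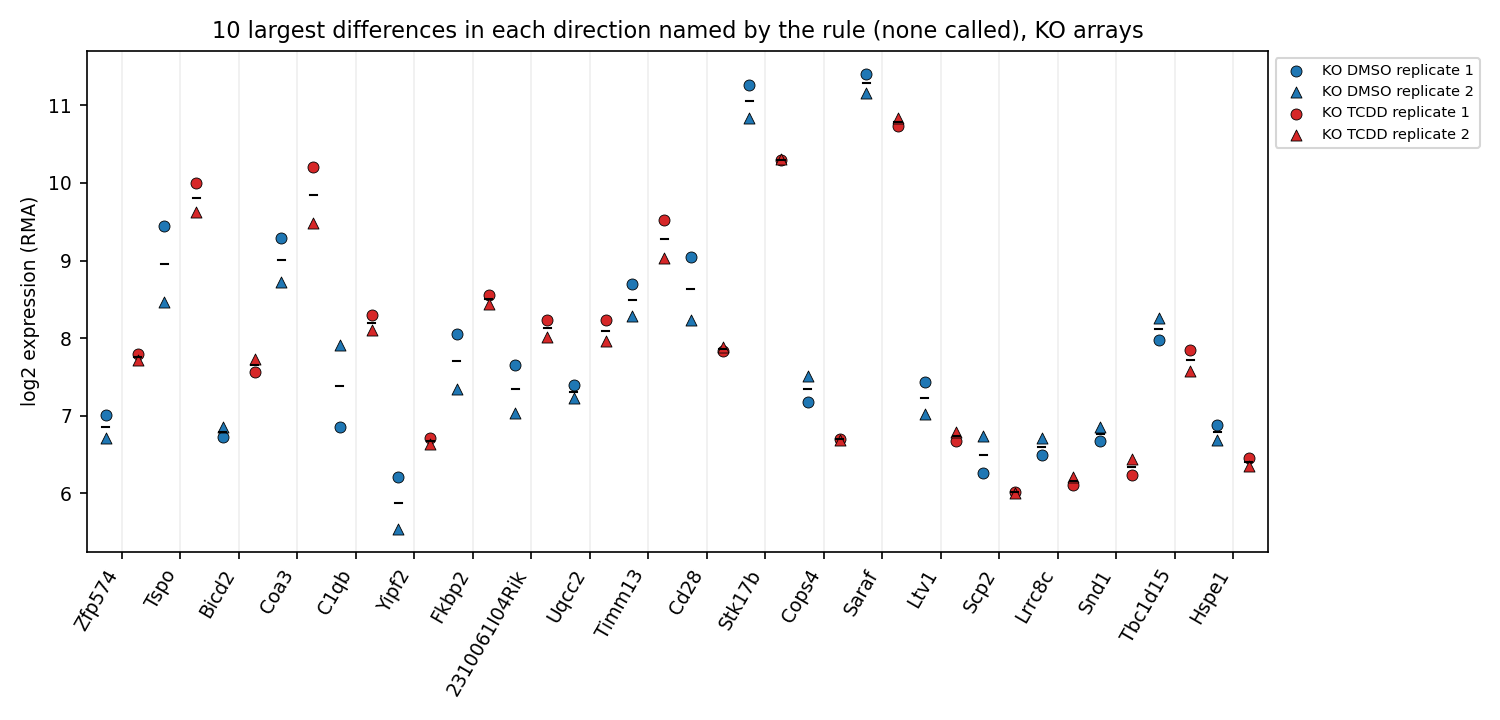
Log2 expression of the 10 higher and 10 lower genes named by the rule, 1 point per KO array, with short bars at the mean of 2 arrays. The rule made the groups separate, none was called, and for Tspo and Cd28 the 2 DMSO arrays stand further apart (9.44 and 8.47; 9.04 and 8.23) than the 2 TCDD arrays.

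Among functional groups, subunits of oxidative phosphorylation had the largest median. Of 69 measured genes, 57 were higher after TCDD in KO and 12 lower, with a median of 0.28 beside 0.03 over all genes, of which 56.8% were higher. No member passed the test, and 9 had an unadjusted p under 0.05, all of them higher. Both TCDD arrays lay above both DMSO arrays for 31 of the 69 and below for 3, against 20.4% and 6.94% over all genes. The median was 0.21 after another quantile normalization, 0.26 with centred arrays, 0.43 without KO DMSO replicate 1, and 0.13 without KO DMSO replicate 2, when 46 of 69 were higher.

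The middle 50% of the list lay between 0.07 and 0.455, and the members given here are from its upper end, 1 for each respiratory complex, with the lowest beside them. Ndufs7, a core subunit of complex I, read 9.58 and 9.14 after DMSO and 10.18 and 9.79 after TCDD (0.625, SE 0.20). Sdhb, the iron-sulfur subunit of complex II, read 9.80 and 9.48 against 10.20 and 10.24 (0.58, SE 0.20), and Cyc1, cytochrome c1 of complex III, differed by 0.415 (SE 0.12). Cox6a1 of complex IV differed by 0.455 (SE 0.14). Atp5j2, a subunit of ATP synthase, had the largest difference of the group at 0.75, with 10.36 and 10.08 against 11.16 and 10.78, and Ndufs1 of complex I the lowest at −0.425. These members were looked at after their values were seen. By array, the group's median distance from the mean of the KO arrays was −0.01 on KO DMSO replicate 1, −0.27 on KO DMSO replicate 2, 0.26 on KO TCDD replicate 1 and 0.06 on KO TCDD replicate 2. In WT the same genes had a median of −0.095, with 20 of 69 higher.

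Proteasome subunits had a median of 0.16 with 23 of 34 higher, but this turned to −0.06 with 13 higher once KO DMSO replicate 2 was left out. Psmb6, a catalytic subunit of the core particle, read 9.84 and 9.28 after DMSO and 10.33 and 9.98 after TCDD (0.595, SE 0.23; 0.32 without that array). Sterol and lipid synthesis genes had a median of 0.185 with 16 of 20 higher, led by Fdft1 (squalene synthase) with 7.42 and 6.54 against 7.77 and 7.53, and a median of 0.06 without KO DMSO replicate 2. The Fdft1 difference of 0.67 was 0.23 without that array, and its 3 other probe sets differed by −0.14, −0.28 and 0.10. Type I interferon response genes had a median of 0.17 with 18 of 24 higher and 0.06 without that array, from Ifi35 (8.43 and 8.08 against 8.86 and 8.65) down to Ifit2 (7.28 and 6.63 against 6.19 and 6.51). Cell cycle genes had a median of 0.135 with 30 of 35 higher, and 0.055 with 21 higher without that array.

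Other stress and xenobiotic pathways had medians close to that of all genes. NRF2 and antioxidant genes had a median of 0.05, with 13 of 22 higher and 8 lower. Keap1, the adaptor that marks NRF2 for degradation, read 8.04 and 7.89 after DMSO and 8.71 and 8.52 after TCDD (0.65, SE 0.13; limma, unadjusted p = 0.0022, adjusted p = 0.9997), and its other probe set differed by 0.18. Hmox1 and Taldo1 are given beside it and were chosen after their values were seen. The target genes of NRF2 did not share a direction: Hmox1 read 7.29 and 6.88 against 6.77 and 6.81, Gclc 7.67 and 7.30 against 7.17 and 7.15, and Taldo1 9.95 and 9.72 against 10.31 and 10.15. Targets of the nuclear receptors CAR, PXR and PPAR had a median of 0.025 with 9 of 17 higher, and none passed the test. Both TCDD arrays lay above both DMSO arrays for 7 of the 17 (41.2%) and below for 2 (11.8%). The shares over all genes were 20.4% and 6.94%. Cyp2b10, a CAR target, read 6.35 and 6.35 against 6.57 and 6.74. Hypoxia and HIF targets had a median of −0.025 (7 of 19 higher), and p53 and apoptosis genes 0.06 (13 of 22 higher). Both depended on the solvent array. Without KO DMSO replicate 1 these medians were 0.125 and 0.11, and without KO DMSO replicate 2 they were −0.105 and −0.03.

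Some T cell and stress programmes depended on which solvent array served as control. Naive and homing genes had a median of −0.20 with 3 of 15 higher and 11 lower, but each KO DMSO array alone as the control gave a different sign, −0.415 against replicate 1 and 0.10 against replicate 2. Foxo1, a transcription factor of naive cells, read 9.52 and 9.21 after DMSO and 8.51 and 9.20 after TCDD. T cell activation genes went from −0.05 to 0.14 with replicate 2 as the sole control and to −0.155 with replicate 1. Immediate early and heat shock genes went from −0.02 to 0.11 and −0.215 likewise, and glucocorticoid response genes from 0.01 to 0.155 and −0.155. Th17 genes (7 of 15 higher, median −0.05), regulatory T cell genes (10 of 18, 0.05), Th1 and Th2 genes (10 of 19, 0.035), circadian clock genes (9 of 19, 0.00) and ribosomal protein genes (26 of 43, 0.05) lay near 0, where the sign of a median can turn with the scaling.

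Dbp, an output gene of the circadian clock, was the member of its list with the largest difference upward, 8.17 and 7.92 after DMSO against 8.62 and 8.56 after TCDD (0.545, SE 0.17), and its other probe set differed by 0.03. Nr1d2, a clock repressor, had the lowest, 6.37 and 6.15 against 5.47 and 5.93 (−0.56, SE 0.27), but its other probe set differed by 0.17. Ctla4, an inhibitory receptor of activated and regulatory T cells, read 10.12 and 9.68 against 9.53 and 9.23, and Tnfrsf18, which encodes GITR, read 10.09 and 9.16 against 10.54 and 9.90. None of these 4 genes passed the test.

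**Figure D4:**
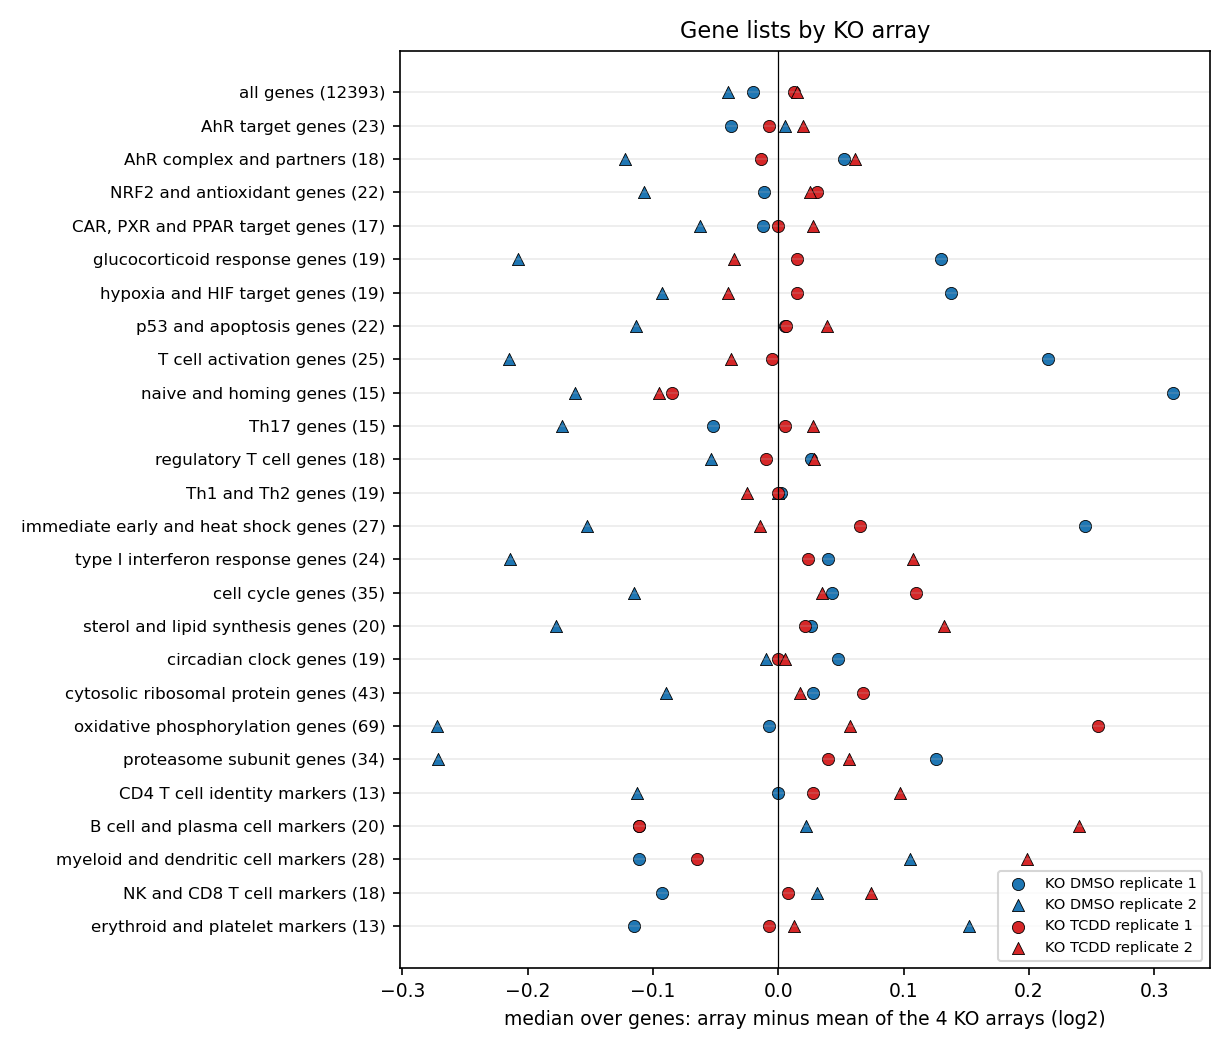
Median over the genes of each list (number measured in brackets) of the distance of each KO array from the mean of the 4 KO arrays, on the log2 scale. For T cell activation and for naive and homing genes the 2 DMSO arrays (blue) lie on opposite sides of the TCDD arrays (red), and for oxidative phosphorylation both TCDD arrays (0.26 and 0.06) lie above both DMSO arrays (−0.01 and −0.27).

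KO DMSO replicate 2 can be described by the genes farthest from the mean of the other 3 KO arrays. It was low in Hspa1b (6.85 on that array, 1.83 below the others), Hspa1a (5.24, 1.75 below), the stress-induced gene Ddit4 (7.21, 1.78 below), Rpl41 and the signalling regulator Rgs16. It was high in Klk1b5 (7.25, 2.68 above the others), the RNA-editing enzyme gene Adarb1 (9.64, 2.21 above), 1 probe set of Atf4 (7.25, 1.80 above), Mdh1 and Fgf18. Other probe sets of Atf4 and Mdh1 differed between treatments by −0.35 to 0.31.

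The sorted cells carried the markers of CD4 T cells on every KO array. Cd4 read 8.11 and 8.21 after DMSO and 8.06 and 8.26 after TCDD, and Cd3e 9.11 and 9.45 against 9.43 and 9.46. The summed log2 level of the 13 measured CD4 T cell markers was 124.68 and 122.30 after DMSO and 124.55 and 124.87 after TCDD. Cd8a, which CD4 T cells lack, read 5.58 and 5.70 against 5.63 and 5.57, under the median level. In sorted pools, more cells of a type and more RNA per cell cannot be told apart.

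Markers of other cells were also present. The summed levels of B cell and of myeloid markers differed more between the arrays of a group than between treatments. Of 20 measured B cell and plasma cell markers 14 were higher after TCDD, and their summed log2 level was 151.16 and 154.14 after DMSO and 149.66 and 161.32 after TCDD. Of 28 myeloid and dendritic cell markers 17 were higher, with sums of 218.39 and 224.28 against 217.86 and 227.27. The arrays numbered 2 were the higher ones in both treatments: Cd74, the invariant chain of MHC class II, read 9.72 and 10.70 after DMSO and 9.42 and 11.39 after TCDD, and Tyrobp, an adaptor of myeloid and NK cells, read 9.48 and 10.18 against 10.00 and 10.73. The median of the myeloid markers was 0.015, and its sign turned with centred arrays or another quantile normalization.

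Both TCDD arrays lay above both DMSO arrays for 3 of 20 B cell and plasma cell markers (15.0%), 5 of 28 myeloid markers (17.9%) and 2 of 18 NK and CD8 T cell markers (11.1%), all under the 20.4% over all genes, and below for 0, 2 and 0. Nkg7, a granule protein gene of cytotoxic and NK cells, read 7.84 and 7.63 after DMSO and 8.52 and 8.50 after TCDD (0.775, SE 0.15; limma, unadjusted p = 0.00185, adjusted p = 0.9997). Of 18 measured NK and CD8 T cell markers 14 were higher and 3 lower, with a median of 0.08 and sums of 109.93 and 111.89 against 112.14 and 114.80. C1qa, a second chain of complement C1q, read 6.89 and 6.84 against 7.49 and 7.42 (0.59, SE 0.15), while C1qc read 6.09 and 6.22 against 6.08 and 6.19. Cd79a, a B cell receptor chain, read 5.43 and 5.41 against 5.73 and 5.79 (0.34, SE 0.10), all under the median level. The lysosomal protease genes Ctsl (10.06 and 10.03 against 9.37 and 9.88) and Ctss (11.15 and 11.19 against 10.69 and 11.05) had both TCDD arrays below both DMSO arrays. The other markers with both TCDD arrays above were Ly6d (0.47), Sdc1 (0.13), Fcer1g (0.365), C1qb, Vcam1 (0.195), Grn (0.18) and Klrk1 (0.15). Except for Nkg7 and C1qb, the markers of other cells given here were chosen after their values were seen. The part of these markers in any other value was not tested.

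Whether the response differed with and without the receptor was tested directly, as the KO difference minus the WT difference. No probe set passed (0 of 22626, or 0% called; smallest adjusted p = 0.998), and 628 had an unadjusted p under 0.05, 531 with a higher and 97 with a lower difference in KO. That count was 3448 without KO DMSO replicate 1, 1240 without WT TCDD replicate 1, 377 without KO TCDD replicate 2 and 332 without KO TCDD replicate 1, again with 0 called. The WT comparison alone also called 0, with 631 at an unadjusted p under 0.05. Over probe sets the KO and WT differences correlated at −0.139 and had the same sign in 45.4%, a description over features that are not independent. The AhR targets had a median of 0.08 in WT with 18 of 23 higher (all genes in WT: median 0.03, 6964 of 12393 higher), beside 0.01 and 12 of 23 in KO, and none of the 23 passed the test of the difference. Markers of other cells differed between the genotypes. The summed myeloid level was 217.86 to 227.27 in KO and 191.76 to 194.52 in WT. For B cell and plasma cell markers it was 149.66 to 161.32 and 137.69 to 141.43. The CD4 T cell sums overlapped, at 122.30 to 124.87 in KO and 120.26 to 125.76 in WT. The part of these gaps in the test of the difference was not tested.

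The WT arrays differed among themselves: WT TCDD replicate 1 had 557 probe sets at least 2-fold from the mean of the other WT arrays, 502 of them below, against 93 to 363 for the other 3, and its actin 3′ minus 5′ difference was 4.56 against 2.90 to 3.70 on these. The part of this array's RNA measure in the values below was not tested. The named genes for this difference are again values that did not pass. Abhd17a, a depalmitoylase gene, read 8.63 and 8.75 after DMSO and 9.33 and 9.33 after TCDD in KO, but 8.04 and 7.93 against 7.26 and 7.04 in WT, so that the effects ran in opposite directions (difference 1.475; limma, unadjusted p = 9.0e-05, adjusted p = 0.998). The named probe sets of Ppdpf (1.34), Ndufs8 (1.30), Bicd2 (1.48) and Nol12 (1.18) had the same pattern, higher after TCDD in KO and lower in WT. For Bicd2 the 4 other probe sets did not have it, and in WT they differed by 0.055 to 0.15. In the opposite direction, Lag3, an inhibitory receptor of activated T cells, read 6.66 and 6.85 against 6.42 and 6.40 in KO and 6.19 and 5.88 against 6.39 and 6.45 in WT (−0.73). Thbs3 (−0.75), Ptpn12 (−0.58), Mettl7a1 (−0.53) and Ikbkb (−0.84), a kinase of the NF-kappaB pathway, were the others. In KO the other probe sets differed by −0.37, 0.08 and −0.17 for Ptpn12 and by 0.04 and 0.07 for Mettl7a1. Those of Ikbkb differed by −0.15, 0.23 and 0.16. Of the 10 higher genes named in KO, 2 pointed the same way in WT, and of the 10 lower genes 8 did.

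**Figure D5:**
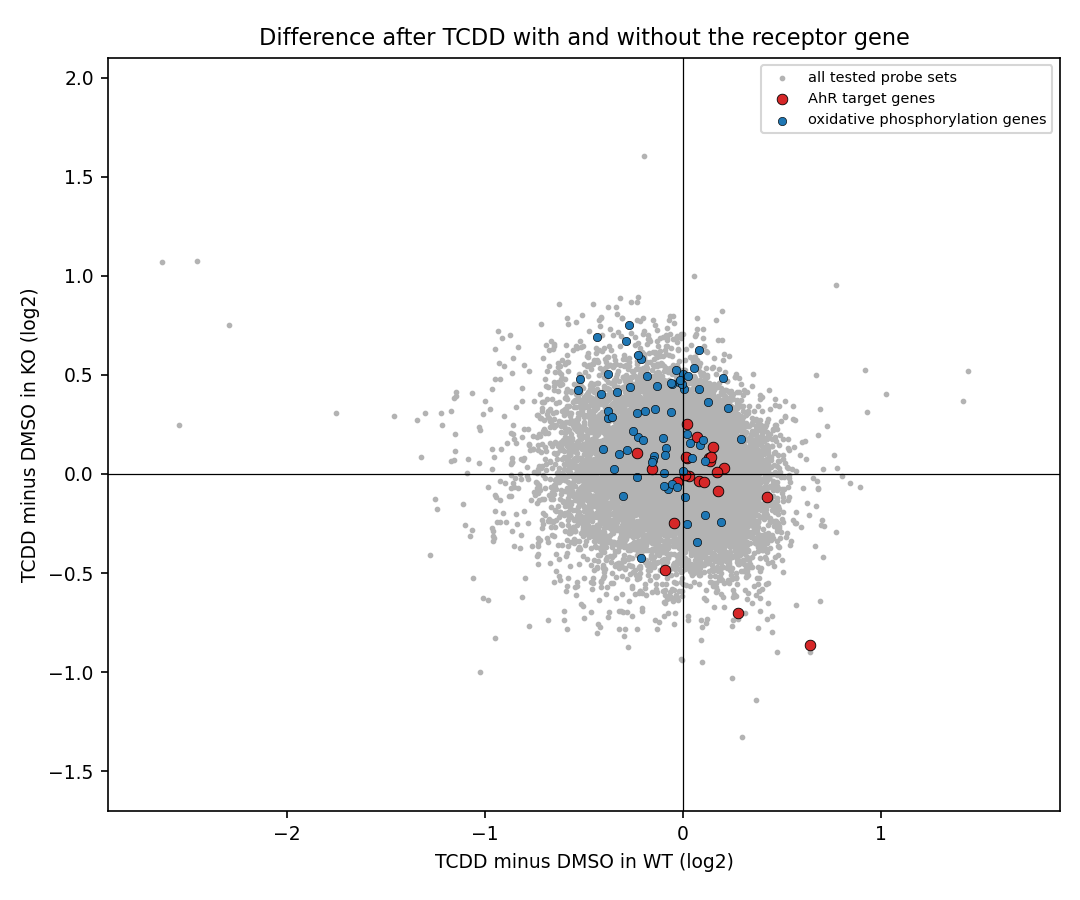
Mean log2 difference after TCDD in WT (horizontal axis) and in KO (vertical axis) for 22626 probe sets (grey), 23 AhR target genes (red) and 69 oxidative phosphorylation genes (blue). The targets scatter around 0 in KO (median 0.01), the oxidative phosphorylation genes lie mostly above 0 in KO (57 of 69), and no probe set was called in either genotype.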

How the data were processed

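Expression was measured on Affymetrix MOE430A arrays, per the labels' protocols, from TRIzol RNA amplified with the Ambion MessageAmp kit. The deposited values are log2 expression, which the authors made with RMA (affy package), as the submitters' processing notes record; their versions and a genome build are not given in the sources used here. Per the labels, the 2 arrays of a group are biological duplicates. The number of arrays limits the precision. Groups came from the titles. Of the tested probe sets, 20380 had 1 gene symbol in the array annotation, 691 had several and 1555 had none, and only the first kind was named; 20351 were matched to RefSeq by Entrez identifier.

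limma 3.58.1 (under R 4.3.3, lmFit followed by eBayes) fitted a model of the 4 group means over all 8 arrays, which left 4 residual and 2.49 prior degrees of freedom. P-values were adjusted by Benjamini-Hochberg over 22626 probe sets, and an adjusted p under 0.05 was called. The fit was tested on simulated data with independent noise of the same spread on every array. No simulated array was set apart and none shared a replicate deviation, so that test does not cover these features of the arrays. Lists were described by counts and medians over 1 probe set per gene, that with the highest mean over the 8 arrays. Genes were named by rule: the receptor, its partners and its listed targets, the 10 largest differences per direction as defined in the report, the largest rise and fall of each list, the 5 smallest p-values per direction for the difference between genotypes, and the 5 genes farthest above and below on the array set apart; other genes, apart from the defining markers Cd4 and Cd3e, are marked as chosen after their values were seen. The members and lists were chosen with earlier results of these data known.

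The replicate numbers were not taken as pairs, as the labels name none. The differences of array 1 minus array 2 correlated at 0.117 between KO DMSO and KO TCDD. They correlated at 0.626 between WT DMSO and WT TCDD, and at −0.293 to 0.216 over the other pairs of groups. The main model did not remove the deviation shared by the WT groups, so it entered the pooled spread. Alternatives were a replicate block, other scalings, a filter on dim probe sets, trend and robust eBayes settings, array weights, gene means, an adjusted p under 0.1, the 4 KO arrays alone and each array left out in turn.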

Additional observations from a re-analysis of the deposited data

How the results depend on the processing

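Under every alternative run, 0 probe sets were called for TCDD against DMSO in KO and 0 for the difference between genotypes, also at an adjusted p under 0.1. The number with an unadjusted p under 0.05 in KO, 383 as reported, ranged from 189 to 3214 when 1 array was left out, and was 508 in a fit of the 4 KO arrays alone, 149 without dim probe sets and 241 for gene means. For the difference between genotypes, 628 as reported, it ranged from 332 to 3448 when 1 array was left out, and was 321 without dim probe sets and 359 for gene means. With a replicate block over all 8 arrays the KO count was 633, and with a replicate block within each genotype it was 897, with 1200 for the difference between genotypes. The labels do not name same-numbered arrays as pairs, although the differences of array 1 minus array 2 correlated at 0.626 between the WT groups. The block added no call. Fewer features enter without dim probe sets and with gene means. The cause of the other shifts was not tested. Intervals excluded a 2-fold change for 8980 probe sets without dim ones, for 11554 genes as gene means, and for 17254 to 20305 probe sets with 1 array left out. These interval counts, and each KO DMSO array alone as the control of the gene lists, were alternatives chosen after seeing the data. Of 32 named KO differences with an unadjusted p under 0.05, none turned sign in 511 alternative values. For those named by the rule of size and separation, leaving out 1 array could not turn the sign. By that rule both of their TCDD arrays lay beyond both DMSO arrays. Of the 80 other named KO differences, 40 of 1256 alternative values had the sign turned. Among the 616 of these values that left no array out, 1 did. The counts are therefore no comparison of stability. With 2 arrays a group, a change inside the intervals cannot be told from none.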
